A study of Mus musculus with 10 samples.

Results

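Squamous epithelia such as the lining of the tongue are specified and stratified by a small set of transcription factors, and 10 of them were examined here. They are the p63 gene Trp63, the SRY-box gene Sox2, the Krüppel-like factors Klf4 and Klf5, the grainyhead-like factors Grhl1, Grhl2 and Grhl3, the OVO-like zinc finger gene Ovol1, the zinc finger gene Zfp750 and the AP-2 gene Tfap2a. They were looked up by symbol, and all 10 of them were found among the 18586 rows of the deposited table. Each had at least 1 TPM in at least 4 libraries, the minimum for testing, which 11630 rows met. Grhl3 reached 1 TPM in exactly 4 libraries, 3 of them EY libraries, so that it passed the minimum narrowly.

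RNA-seq was performed on primary cultures of tongue epithelium from adult mice, taken 15 days after transgene induction with cells sorted for green fluorescence and expanded in culture. All cultures carried Krt14-CreERT, which acts in cells with an active Krt14 promoter, together with LSL-rtTA and the tetON_H2B-GFP reporter. EY cultures carried in addition tetON_E6-E7, the papillomavirus oncogenes that disable p53 and RB, and tetON_YAP1S127A, a constitutively active form of the Hippo pathway coactivator YAP1. N cultures carried neither and served as controls. The 6 EY libraries came from the lines EY3960, EY4028 and EY4174 (3 lines, each sequenced as 2 libraries), and the 4 N libraries all came from 1 line, N4172. A difference between genotypes and a difference between lines therefore cannot be told apart in the N arm, and libraries of a line are no separate animals, so that p-values measure the spread between these libraries. Values are TPM (transcript abundance divided by length and scaled to a common sum within each library), from which the read depth cannot be recovered. The comparison of EY with N asks whether the lineage factors differ where YAP1 is kept active beside E6-E7, and the comparison of lines asks how far each difference is shared among cultures.

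The factors divide the work of building a stratified epithelium. P63 sets up and holds the basal progenitor state, in which SOX2 is its frequent partner, and AP-2 factors act beside p63 in early keratinocyte commitment. KLF5 is found mainly in proliferating basal cells, and KLF4 in suprabasal cells that leave the cycle. Grainyhead-like factors govern cell junction and barrier genes, OVOL1 restrains progenitor proliferation and mesenchymal genes, and ZNF750, the human counterpart of Zfp750, acts downstream of p63 in terminal differentiation.

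Upstream sequence was available for Sox2, Klf4, Grhl3, Grhl1 and Tfap2a, 5 of the 10 members, in the RefSeq promoter table for GRCm38.p6. The 250 bases before the start are shown, 5′ to 3′ on the gene's strand, for the grainyhead genes that differed among the EY lines and for Klf4, which was higher in every EY library than in every N library. Grhl1 has a pair of listed starts. The window before the first lies at chr12:24572037-24572286 and that before the second at chr12:24580469-24580718, both on the plus strand, and the second start lies inside the gene. The Grhl3 window is chr4:135573633-135573882 and the Klf4 window chr4:55532476-55532725, both on the minus strand. Capitals mark matches to the motifs searched, on either strand.
Grhl1 first start: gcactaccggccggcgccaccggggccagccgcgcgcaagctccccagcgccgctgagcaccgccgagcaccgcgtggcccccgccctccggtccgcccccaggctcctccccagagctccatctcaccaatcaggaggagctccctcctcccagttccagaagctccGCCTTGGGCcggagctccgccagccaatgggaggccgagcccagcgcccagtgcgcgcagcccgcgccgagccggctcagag
Grhl1 second start: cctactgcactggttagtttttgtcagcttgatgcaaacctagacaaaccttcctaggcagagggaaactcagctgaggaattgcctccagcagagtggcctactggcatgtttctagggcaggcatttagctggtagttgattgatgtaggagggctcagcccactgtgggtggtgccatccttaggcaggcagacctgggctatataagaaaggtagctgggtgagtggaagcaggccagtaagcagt
Grhl3: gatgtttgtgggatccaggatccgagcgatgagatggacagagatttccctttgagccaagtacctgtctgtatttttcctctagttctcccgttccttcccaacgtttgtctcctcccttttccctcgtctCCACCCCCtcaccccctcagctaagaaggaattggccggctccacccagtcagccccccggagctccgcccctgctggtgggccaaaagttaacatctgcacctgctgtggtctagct
Klf4: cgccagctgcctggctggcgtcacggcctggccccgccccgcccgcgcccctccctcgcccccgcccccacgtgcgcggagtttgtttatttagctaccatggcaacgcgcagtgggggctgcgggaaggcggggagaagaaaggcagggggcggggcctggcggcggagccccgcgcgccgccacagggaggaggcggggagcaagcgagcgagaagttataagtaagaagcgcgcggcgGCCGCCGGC

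The motifs were GGAATG for TEAD factors, the DNA-binding partners of YAP, AACNGGTT for grainyhead factors, CCGTTA for OVOL, GGGNGTGG for KLF, ACAATG for SOX, GCCNNNGGC for AP-2 and TGANTCA for AP-1. No 2 matches overlapped in these windows. The first Grhl1 window held an AP-2 match that began 82 bases before the start, the Klf4 window an AP-2 match 9 bases before it, and the Grhl3 window a KLF match 118 bases before it. Of all 32851 promoter windows of this length, 13.7% held the AP-2 motif and 15.9% the KLF motif. The TEAD motif was in 12.6% of all windows, the AP-1 motif in 6.75%, the SOX motif in 10.7%, the OVOL motif in 2.18% and the grainyhead motif in 1.79%, and none of these letters occurred in any of the 7 windows of members. The windows differed in base composition. The first Grhl1 window was 75.6% G and C with 27 CpG sites and the Klf4 window 74% with 32 CpG sites, whereas the Grhl3 window was 56% with 8 CpG sites and the second Grhl1 window 52% with none. The median over all windows was 52.4% with 6 CpG sites.

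The libraries had the profile of squamous epithelium. The basal keratin genes Krt5 and Krt14, with Krt6a, Dsp, Dsg3, Itga6, Itgb4 and Perp, summed to between 7374 and 9607 TPM in EY and between 7769 and 8466 TPM in N, and limma called 0 of these 8 genes between the genotypes, with 1 at an unadjusted p under 0.05, which 37.5% of all tested genes had in this comparison. Yap1 was 34.7 to 57.1 TPM in EY and 17.2 to 20.9 TPM in N. The listed fibroblast, endothelial and muscle markers in the table were each below 1 TPM in every library. Among the N libraries, sample 4 stood apart. It held the highest or the lowest N value for 9 of the 10 members (90%), and for 72.2% of all tested genes, against 37.3% to 48% for the other N libraries. It was also the highest N library for 12 of 13 late differentiation genes. Calls that changed without it are given beside the results.

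By mean TPM in N the order of levels was Trp63, Klf5, Klf4, Sox2, Grhl2, Tfap2a, Ovol1, Zfp750, Grhl1 and Grhl3. Trp63 lay above the other members in every library, at 70.8 TPM or more in N and at 46.0 TPM or more in EY. In N the libraries of Klf5 and Klf4 overlapped, as did those of Klf4 and Sox2, and of Sox2 and Grhl2, and no N library placed Tfap2a within the range of Grhl2 or of Ovol1. From Ovol1 down to Grhl3, neighbours overlapped in TPM. In EY the order was Trp63, Klf4, Klf5, Grhl2, Sox2, Tfap2a, Ovol1, Grhl1, Zfp750 and Grhl3, with gaps between library ranges only after Trp63 and between Klf5 and Grhl2. Klf4 stood above Klf5 in 4 of the 6 EY libraries and below it in 3 of the 4 N libraries.

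**Figure D1:**
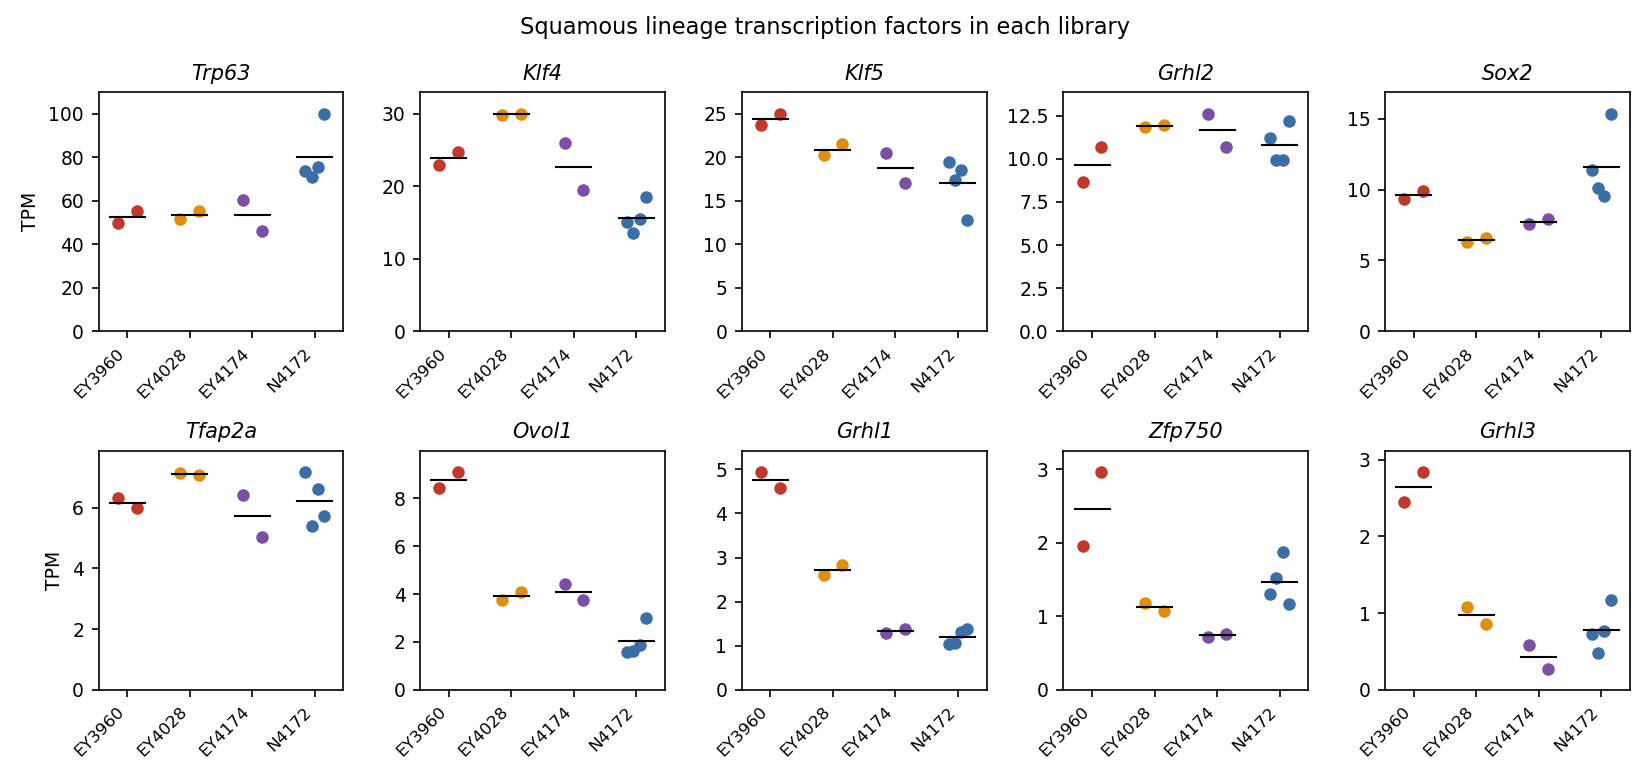
TPM (vertical axes, each from 0) of the 10 squamous lineage transcription factors in each library, ordered by mean TPM. Points are libraries, 2 for each EY line and 4 for N4172, and black lines are line means; Trp63, Klf4 and Ovol1 show no overlap between EY and N, and Grhl1 and Grhl3 are highest in line EY3960.

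Across the genotypes, Ovol1 and Klf4 were higher and Trp63 lower in EY. Ovol1 alone met both thresholds, an adjusted p under 0.01 and a difference over 1 on the log2(TPM + 1) scale, which 3.55% of all tested genes met. With Ovol1, Klf4 and Trp63 passed the adjusted p at a smaller fold, making 3 of 10 members where 11.8% of all genes did so. The same 3 genes were those in which EY and N libraries did not overlap, which held for 20.4% of all tested genes. The median difference over the members was 0.16 and over all tested genes 0.03. The other 7 members did not pass.

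Trp63, the basal identity factor, was measured at 49.6 and 55.1 TPM in EY3960, 51.6 and 55.1 TPM in EY4028, and 60.5 and 46.0 TPM in EY4174. The N libraries had 73.7, 70.8, 75.3 and 99.9 TPM. The groups did not overlap, and the EY lines were nearly level with each other, with means of 52.4, 53.4 and 53.3 TPM. EY averaged 52.99 ± 5.06 TPM (SD, n = 6) against 79.9 ± 13.5 TPM for N (SD, n = 4), a difference of -0.58 on the log2(TPM + 1) scale (95% confidence interval -0.81 to -0.34, adjusted p = 0.00262). The value of N sample 4 was set apart from the other 3, and without it the N mean was 73.3 ± 2.29 TPM (SD, n = 3) and the difference -0.46 (adjusted p = 0.00336). Each line taken alone lay between -0.59 and -0.56 with adjusted p of 0.0123 to 0.0155, and the lines did not differ detectably (largest difference 0.03, adjusted p = 0.991). With line as a random block the same difference had an adjusted p of 0.109, and without line EY4028 one of 0.0149. Gene-level values do not separate the TAp63 and ΔNp63 isoforms, which start at different promoters.

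Sox2, the partner of p63 in basal cells, lay lower in 5 of the 6 EY libraries than in any N library. It had 9.34 and 9.92 TPM in EY3960, 6.32 and 6.58 TPM in EY4028, and 7.57 and 7.92 TPM in EY4174, against 11.4, 10.1, 9.55 and 15.3 TPM in N. The groups overlapped only through EY3960, whose second library exceeded the lowest N library. The means were 7.94 ± 1.45 TPM (SD, n = 6) and 11.6 ± 2.61 TPM (SD, n = 4), and the difference of -0.49 did not pass (95% confidence interval -0.82 to -0.16, adjusted p = 0.0363). Without N sample 4 it was -0.36 (adjusted p = 0.0906). In the single line EY4028 the difference was -0.74 (SE 0.16, adjusted p = 0.00646), under the fold threshold, and that pass was kept in 6 of 14 alternative settings (adjusted p up to 0.0633). The long noncoding gene Sox2ot contains Sox2 on the same strand, and its own row held between 0.136 and 0.434 TPM.

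Tfap2a, the AP-2 member, gave 6.33 and 6.0001 TPM in EY3960, 7.13 and 7.07 TPM in EY4028, and 6.40 and 5.05 TPM in EY4174. In N it gave 7.16, 5.38, 6.61 and 5.72 TPM. The groups overlapped almost wholly, and the difference of 0.02 had an interval of -0.23 to 0.27 (adjusted p = 0.915), with a sign that turned under median-of-ratios scaling and quantile normalization.

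Klf4, which accompanies exit from the basal layer, was higher in every EY library than in any N library. It had 23.0 and 24.7 TPM in EY3960, 29.8 and 30.01 TPM in EY4028, and 26.0 and 19.4 TPM in EY4174, against 15.03, 13.6, 15.5 and 18.5 TPM in N. The difference was 0.66 (95% confidence interval 0.38 to 0.94, adjusted p = 0.00339), from averages of 25.5 ± 4.07 TPM (SD, n = 6) for EY against 15.7 ± 2.09 TPM (SD, n = 4) for N. Line EY4028 was highest, at 0.90 (SE 0.14, adjusted p = 8e-04), followed by EY3960 at 0.58 (adjusted p = 0.00902) and EY4174 at 0.50 (adjusted p = 0.0201), and the lines did not differ detectably (adjusted p = 0.175). The adjusted p rose to 0.0141, 0.0161 and 0.0129 when N sample 1, 2 or 3 was left out, and was 0.0028 without N sample 4. With line as a random block it was 0.0806.

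Klf5, the proliferative counterpart, had 23.7 and 25.0 TPM in EY3960, 20.2 and 21.5 TPM in EY4028, and 20.5 and 17.0 TPM in EY4174. In N it had 19.4, 17.4, 18.5 and 12.7 TPM, with sample 4 again at the end of the range. The ranges overlapped, and the difference of 0.32 did not pass (95% confidence interval 0.03 to 0.60, adjusted p = 0.0993). Without N sample 4 it was 0.19 (adjusted p = 0.244). The ratio of Klf4 to Klf5 TPM was between 0.972 and 1.48 in EY and was 0.773, 0.781, 0.84 and 1.46 in N, so that only N sample 4 lay within the EY range. The ratio of Klf4 to Trp63, by contrast, did not overlap. It was 0.422 to 0.578 in EY and 0.185 to 0.206 in N, with N sample 4 beside the other N libraries. This ratio was formed after the values were seen and combines a pair of differences already given, so that it adds no independent test.

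Ovol1, the restraint on progenitors, showed the largest difference of the members. It had 8.43 and 9.09 TPM in EY3960, 3.76 and 4.07 TPM in EY4028, and 4.41 and 3.75 TPM in EY4174, against 1.58, 1.64, 1.85 and 3.02 TPM in N. All EY libraries exceeded all N libraries, and both EY3960 libraries exceeded the other EY libraries. EY averaged 5.58 ± 2.48 TPM (SD, n = 6) against 2.02 ± 0.673 TPM for N (SD, n = 4), a ratio of 2.76, and the difference on the log2(TPM + 1) scale, which understates genes of few TPM, was 1.07 (95% confidence interval 0.53 to 1.61, adjusted p = 0.00937).

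The Ovol1 call stood close to its threshold. Without line EY3960 the difference was 0.75 (adjusted p = 0.00705), under the fold threshold, while without N sample 4 it was 1.22 (adjusted p = 0.00762). The adjusted p moved to between 0.0107 and 0.0352 when either EY3960 library, either EY4028 library, EY4174 sample 1, or N sample 1, 2 or 3 was left out, and the difference then lay between 0.93 and 1.15. With line as a random block the adjusted p was 0.091. Against N alone, EY3960 differed by 1.71 (SE 0.18, adjusted p = 4.9e-05), EY4028 by 0.73 (SE 0.18, adjusted p = 0.0121) and EY4174 by 0.77 (SE 0.18, adjusted p = 0.00946). The pass in EY4174 was kept in 3 of 14 alternative settings, with an adjusted p of up to 0.0735. Its relative Ovol2, by contrast, averaged 3.27 ± 0.527 TPM across EY (SD, n = 6) against 4.25 ± 0.569 TPM across N (SD, n = 4), and its difference of -0.30 did not pass (adjusted p = 0.0965). Ovol1 over Ovol2 was 0.877 to 2.86 in EY and 0.332 to 0.693 in N, so that the more abundant OVO-like gene was Ovol2 in every N library and Ovol1 in 5 of the 6 EY libraries.

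**Figure D2:**
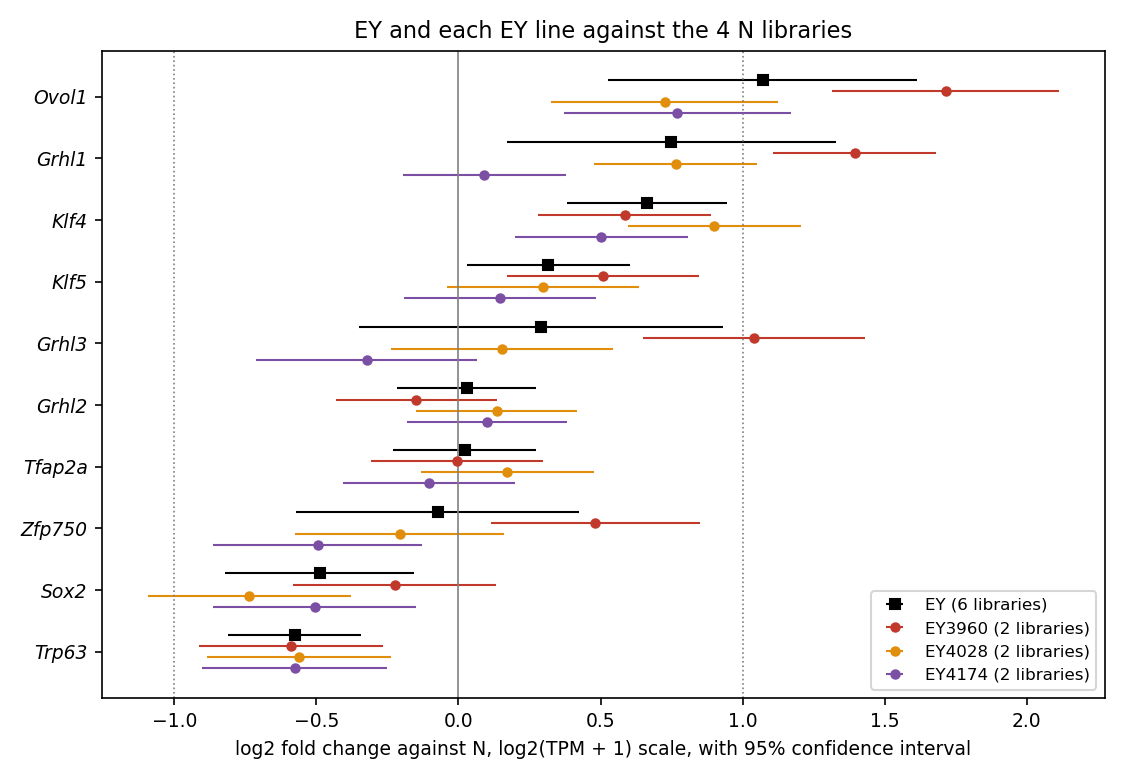
Log2 fold change against N on the log2(TPM + 1) scale (horizontal axis) for each member, with 95% confidence intervals from limma; black squares are all 6 EY libraries and coloured circles the single EY lines, each against the same 4 N libraries. Dotted lines mark a difference of 1 in either direction; Ovol1 is highest at 1.07 for EY, Trp63 lies near -0.58 in every line, and Grhl1 spreads from 0.09 in EY4174 to 1.39 in EY3960.

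The grainyhead-like genes behaved differently from one another. Grhl2, the most abundant, had 8.65 and 10.7 TPM in EY3960, 11.9 and 12.0 TPM in EY4028, 12.6 and 10.7 TPM in EY4174, and 11.2, 9.94, 9.90 and 12.2 TPM in N. The groups overlapped, and the difference was 0.03 (95% confidence interval -0.22 to 0.27, adjusted p = 0.879), with a sign that turned under median-of-ratios scaling and quantile normalization. An antisense gene overlapping Grhl2, Gm16136, was tested as well and had 9.90 TPM in EY and 5.50 TPM in N on average (difference 0.75, adjusted p = 0.000925). Whether the counting used strand is not given in the sources used here.

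Grhl1 and Grhl3 separated the EY lines. Both met the thresholds in the F test among the 3 EY lines with a difference over 1 between a pair of lines, as did 5.12% of all tested genes. Grhl1 had 4.94 and 4.59 TPM in EY3960, 2.61 and 2.84 TPM in EY4028, and 1.28 and 1.39 TPM in EY4174, against 1.03, 1.07, 1.31 and 1.37 TPM in N. The lines formed 3 separate levels, and EY4174 lay at the top of the N range, with 1 library just above it. EY3960 exceeded EY4174 by 1.30 (SE 0.15, adjusted p = 0.000191) and EY4028 by 0.63 (SE 0.15, adjusted p = 0.0287), and the F test gave an adjusted p of 0.00052. Against N, the difference was 1.39 in EY3960 (SE 0.13, adjusted p = 2.05e-05), 0.76 in EY4028 (SE 0.13, adjusted p = 0.00153) and 0.09 in EY4174 (SE 0.13, adjusted p = 0.636). Over all EY libraries it was 0.75 and did not pass (95% confidence interval 0.17 to 1.33, adjusted p = 0.0584), whereas without line EY4174 it was 1.08 (adjusted p = 0.00211) and without line EY3960 0.43 (adjusted p = 0.131).

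Grhl3, which is most abundant in differentiating layers, was low throughout. It had 2.44 and 2.84 TPM in EY3960, 1.08 and 0.861 TPM in EY4028, and 0.58 and 0.266 TPM in EY4174, against 0.724, 0.486, 0.762 and 1.17 TPM in N. Only in EY3960 did both libraries lie outside the N range. It exceeded EY4174 by 1.36 (SE 0.20, adjusted p = 0.00104) and EY4028 by 0.89 (SE 0.20, adjusted p = 0.025), with an adjusted p of 0.00266 in the F test. That p became 0.0186 without EY3960 sample 1, 0.0303 without EY3960 sample 2 and 0.0177 without EY4174 sample 2. Over all EY libraries the difference from N was 0.29 (95% confidence interval -0.35 to 0.93, adjusted p = 0.509), and without line EY3960 it was -0.08 (adjusted p = 0.787). In EY3960 alone it was 1.04 (SE 0.18, adjusted p = 0.0013), with an adjusted p of 0.0113 and 0.022 when its first or second library was left out. Grhl3 reached 1 TPM only in both EY3960 libraries, EY4028 sample 1 and N sample 4. It thus met the minimum for testing only with its highest line, and its F test and EY3960 p-values are no independent support.

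As a share of the summed TPM of the 3 grainyhead genes, Grhl2 made up 82.7% to 86.5% in N, 86.6% and 87.2% in EY4174, 76.3% and 76.4% in EY4028, and 54.0% and 59.0% in EY3960. The share of Grhl1 averaged 10.05% in EY4174, 17.4% in EY4028 and 28.1% in EY3960, and that of Grhl3 3.08%, 6.23% and 15.5% in the same order. The sum itself was 12.3 to 18.1 TPM in EY and 11.5 to 14.7 TPM in N.

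**Figure D3:**
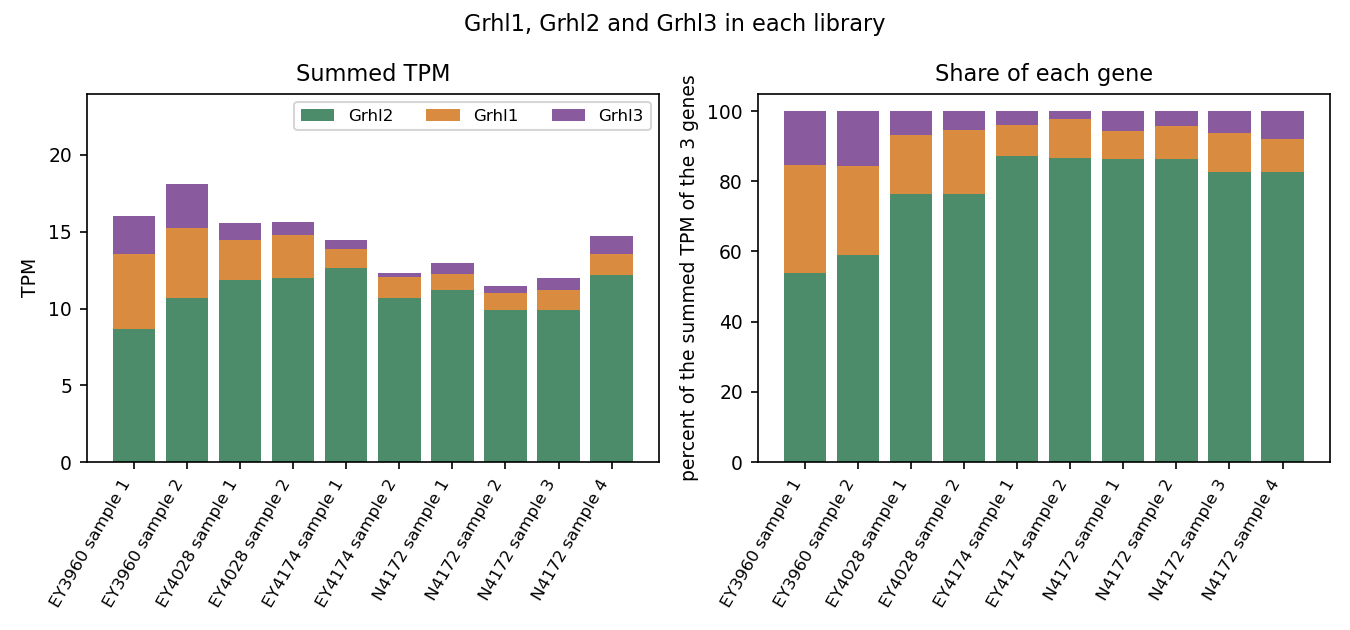
TPM of Grhl1, Grhl2 and Grhl3 stacked for each library (left, vertical axis in TPM) and as percent of their sum (right). Grhl2 takes 54.0% to 59.0% of the sum in line EY3960 and 82.7% to 86.5% in the N libraries.

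Zfp750, the terminal differentiation factor downstream of p63, had 1.96 and 2.96 TPM in EY3960, 1.18 and 1.07 TPM in EY4028, and 0.719 and 0.762 TPM in EY4174, against 1.31, 1.52, 1.88 and 1.16 TPM in N. EY3960 lay above every N library and EY4174 below every N library. The genotype difference was -0.07 (95% confidence interval -0.57 to 0.42, adjusted p = 0.846), and the EY lines differed by up to 0.98, which missed both thresholds (adjusted p = 0.0125). Ovol1 among the lines was as close, with a largest difference of 0.99 (adjusted p = 0.0109). Zfp750 overlaps Tbcd on the opposite strand, and Tbcd had 14.9 to 27.9 TPM.

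Line by line, EY3960 carried the calls. Against N, 3 of 10 members were called in EY3960, namely Grhl1, Grhl3 and Ovol1, all of them higher, where 7.04% of all tested genes were called. Grhl3 met the minimum for testing only with the EY3960 libraries, so that its call is no independent support. In EY4028 and in EY4174 limma called 0 members, where 5.74% and 4.95% of all genes were called, and 5 members in each had an unadjusted p under 0.05, as did 41.1% and 41.4% of all genes. At an adjusted p under 0.01 regardless of fold, Klf4 passed in EY3960 beside the called members. Grhl1, Klf4 and Sox2 passed in EY4028, the first pair higher and Sox2 lower, and Ovol1 passed in EY4174. The passes of Klf4 in EY3960, of Sox2 in EY4028 and of Ovol1 in EY4174 were lost in most alternative settings. The share of all genes that passed at any fold was not taken by line, so that these passes have no background beside them. The median difference of the members from N was 0.50 in EY3960, 0.16 in EY4028 and -0.01 in EY4174, against 0.01, 0.09 and -0.01 over all genes. EY3960 had the highest of the 4 line means for 5 members and EY4174 for none, while over all genes they had it for 23.6% and 18.6%. These comparisons share the N libraries.

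Some genes listed as markers of other cells set EY3960 apart, in either direction. Of 8 immune markers 5 are in the table, and their summed level was 37.1 to 104.7 TPM in EY and 42.9 to 73.2 TPM in N, nearly all of it Cd68 and S100a8. Cd68 averaged 70.3 TPM in EY3960, 36.9 TPM in EY4028 and 29.4 TPM in EY4174, and S100a8, an antimicrobial protein gene that keratinocytes also express, 31.8, 6.66 and 7.73 TPM. S100a8 was called higher in EY than in N (2.52, adjusted p = 0.00906), with 1.41 ± 1.04 TPM in N (SD, n = 4), and without N sample 4 the difference was 2.77 (adjusted p = 0.0103). It had 0.6 and 0.653 TPM in N samples 1 and 2 and at least 5.54 TPM in every EY library. The minimum for testing was therefore met only with EY libraries, and the p-values of S100a8 are no independent support. Ptprc, the pan-leukocyte marker, stayed at or below 0.347 TPM in every library. Of 6 taste and salivary markers 4 are in the table, with summed levels of 46.1 to 129.4 TPM in EY and 41.4 to 64.7 TPM in N, and Krt18 averaged 126.2 TPM in EY3960, 60.2 TPM in EY4028 and 45.4 TPM in EY4174, while its partner Krt8 went the other way, at 0.169, 1.30 and 1.38 TPM in the same lines and 0.478 TPM in N (F test among the EY lines, adjusted p = 0.00606). Krt8 reached 1 TPM only in the libraries of EY4028 and EY4174 and met the minimum for testing through them. Its F test among the lines is therefore no independent support. Trpm5 and Gnat3, which define taste cells, stayed below 1 TPM in every library. Of 4 melanocyte markers 3 are in the table, at 0.311 to 1.06 TPM in sum in EY and 1.12 to 3.24 TPM in N. The part of these signals in the member results was not tested. In bulk cultures, fewer cells of a type and less RNA per cell cannot be told apart.

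Genes listed as targets of the members were examined next. Of 18 genes that p63 is known to regulate, 15 were tested and limma called 0 between EY and N, with 6 at an unadjusted p under 0.05, which 37.5% of all tested genes had. Their median difference was -0.08, against 0.03 over all genes. The keratin genes Krt5, at 1943 TPM in EY and 1822 TPM in N, and Krt14, at 3294 and 3371 TPM, were among them (adjusted p = 0.855 and 0.803). These means cover lines that lay apart. In EY3960, EY4028 and EY4174, Krt5 averaged 1392, 1911 and 2527 TPM and Krt14 2542, 3403 and 3938 TPM. The F test among the lines gave adjusted p of 0.000603 and 0.00271, with largest differences of 0.86 and 0.63, under the fold threshold. In EY3960 against N, the called pair was the growth factor receptor gene Fgfr2, lower, with a difference of -1.19 (adjusted p = 0.00433; without N sample 4, -0.98, under the fold threshold), and Bmp7, lower, with a difference of -1.02 (adjusted p = 0.000122). That pair stood among 15 tested genes, where 7.04% of all tested genes were called in EY3960. In EY4028 limma called 0, with 7 at an unadjusted p under 0.05, which 41.1% of all tested genes had there.

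Of 18 junction and protease genes that grainyhead factors are known to regulate, 14 were tested, and 1 was called higher and 1 lower in EY, where 3.55% of all tested genes were called. The tight junction gene Cldn4 averaged 32.4 ± 18.4 TPM across EY (SD, n = 6) against 7.27 ± 1.01 TPM across N (SD, n = 4), higher by 1.83 (adjusted p = 0.00795), and without N sample 4 by 1.90 (adjusted p = 0.0157). Arhgef19, a guanine nucleotide exchange factor gene, was 0.633 ± 0.354 and 2.81 ± 0.785 TPM, lower, with a difference of -1.23 (adjusted p = 0.00125). It was at or below 0.939 TPM in every EY library and met the minimum for testing through N libraries alone, so that its p-values are no independent support. At any fold, 6 were higher and 1 lower at an adjusted p under 0.01, a threshold met by 11.8% of all tested genes, among them the epithelial adhesion gene Epcam at 58.8 and 33.0 TPM and the trafficking gene Rab25 at 220.9 and 123.5 TPM. The list's median difference was 0.39 in EY, and by line 0.52 in EY3960, 0.40 in EY4028 and 0.25 in EY4174. Called by line were Cldn4, the membrane protease gene Prss8 and Arhgef19 in EY3960, and Cldn4 and Arhgef19 in EY4028. Over all tested genes, 7.04% and 5.74% were called in these lines. In EY4174 limma called 0, with 9 at an unadjusted p under 0.05, which 41.4% of all tested genes had there. Without N sample 4, Prss8 was called between the genotypes (1.11, adjusted p = 0.00243) in place of Cldn4. Then 4, 2 and 2 genes were called in EY3960, EY4028 and EY4174, where 7.92%, 6.36% and 5.55% of all tested genes were called.

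Of 20 late differentiation genes 13 were tested. Between EY and N limma called 0, with 3 at an unadjusted p under 0.05, which 37.5% of all tested genes had, and a median difference of 0.47. The lines lay apart, with medians of 1.44 in EY3960, 0.32 in EY4028 and 0.11 in EY4174. In EY3960 the called genes were the oral keratin gene Krt4 (2.44, adjusted p = 2.48e-05), the cornified envelope gene Sprr1b (3.28, adjusted p = 0.00176) and the lipid transporter gene Abca12 (1.96, adjusted p = 0.000223), all higher. In EY4028 Abca12 was higher and Krt13 lower, and in EY4174 Krt13 was lower, with a difference of -3.45 (adjusted p = 2.98e-05). Among the EY lines, Krt4, Krt13, Ivl and Spink5 were called. Over all tested genes, 7.04%, 5.74% and 4.95% were called in EY3960, EY4028 and EY4174, and 5.12% among the EY lines. Krt4 was below 1 TPM in N samples 1, 2 and 3 and in both EY4028 libraries. It met the minimum for testing only with the EY3960 libraries, so that its p-values are no independent support. Involucrin, Ivl, averaged 22.1 TPM in EY3960, 13.5 TPM in EY4028 and 7.64 TPM in EY4174, the same order as Grhl1, Grhl3 and Zfp750. Genes named here by line were chosen after their values were seen.

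The counts of late differentiation genes turned on N sample 4. It had 195.0 TPM of the cornified envelope gene Sprr1a, against 15.8 to 19.2 TPM in the other N libraries. Cnfn, which encodes cornifelin, had 42.6 TPM there and 0.813 to 1.53 TPM in the others. Crct1, a gene of the epidermal differentiation complex, had 32.98 TPM there and 0.54 to 1.52 TPM in the others. Without N sample 4, Abca12 was called between the genotypes (1.53, adjusted p = 0.00809), and the median difference of the 13 genes was 0.58. The genes called then numbered 7 in EY3960, all higher, 6 in EY4028, 5 of them higher, and 3 in EY4174, 2 of them higher, with medians of 2.06, 0.38 and 0.48. Among the EY lines 10 were called. Over all tested genes, 7.92%, 6.36% and 5.55% were then called in the 3 lines and 6.22% among them.

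**Figure D4:**
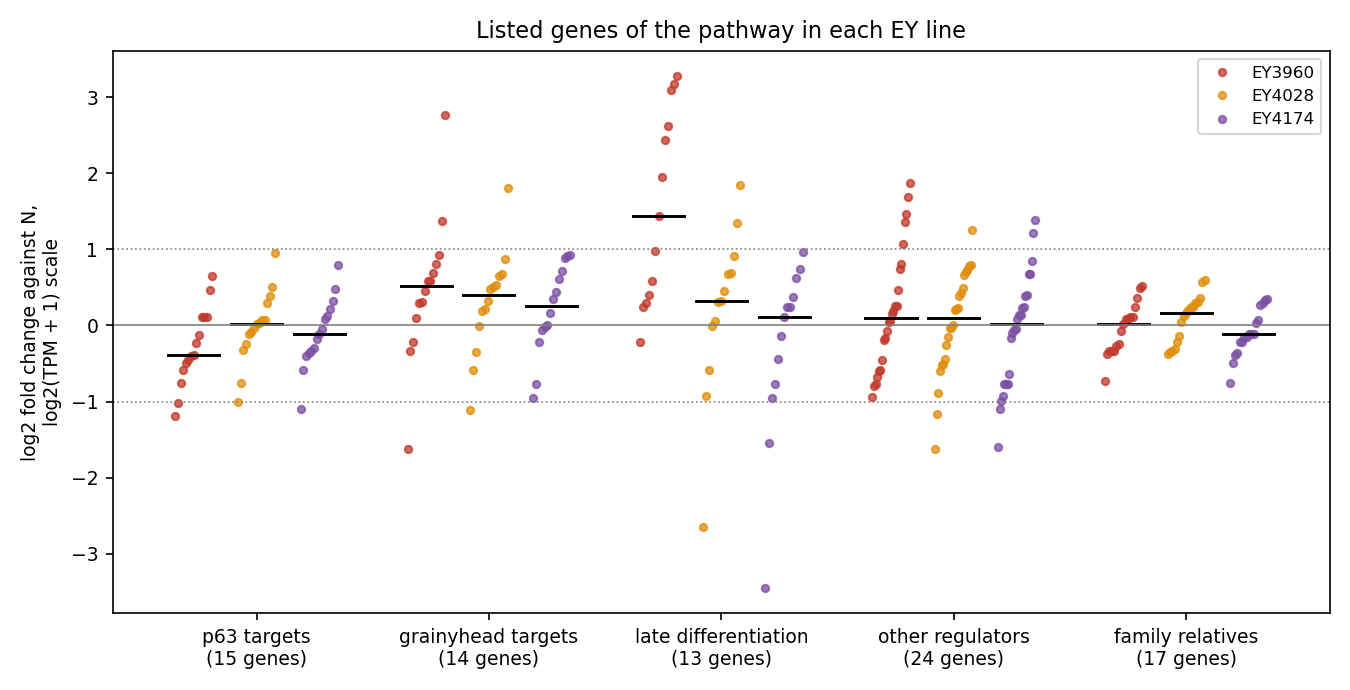
Log2 fold change against N on the log2(TPM + 1) scale (vertical axis) of each tested gene in 5 lists, for the 3 EY lines; points are genes, sorted within a line, and black bars are list medians. The late differentiation genes have a median of 1.44 in EY3960 and 0.11 in EY4174 (2.06 and 0.48 without N sample 4), and the family relatives have medians between -0.12 and 0.17.

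Of 26 listed relatives of the members in the same gene families 17 were tested. In EY against N limma called 0, with 3 at an unadjusted p under 0.05, which 37.5% of all tested genes had, and a median difference of 0.08. It called 0 in each line as well, with 5, 5 and 3 at an unadjusted p under 0.05 in EY3960, EY4028 and EY4174, against 39.8%, 41.1% and 41.4% of all genes. Sox4 alone passed the adjusted p between the genotypes, at 5.86 TPM in EY and 9.40 TPM in N, a difference of -0.62 (adjusted p = 0.00509). The most abundant relatives were Sox15 at 82.8 and 76.6 TPM, Trp53 at 79.4 and 67.7 TPM, and Klf6 at 73.6 and 57.5 TPM, none of which passed. Of 36 other regulators of squamous cells 24 were tested, and 1 was called higher and 1 lower, where 3.55% of all tested genes were called. Id3, an inhibitor of basic helix-loop-helix factors, averaged 12.1 ± 2.74 TPM across EY (SD, n = 6) against 4.82 ± 1.43 TPM across N (SD, n = 4), higher by 1.18 (adjusted p = 0.00174). The homeobox gene Barx2 was 1.84 ± 0.926 and 5.92 ± 0.879 TPM, lower, with a difference of -1.33 (adjusted p = 0.0011). Without N sample 4, Barx2 was called still, Id3 lay under the fold threshold at 0.97, and Hopx, an atypical homeobox gene, was called higher (1.33, adjusted p = 0.00332).

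By line, Elf3, Ehf, Hopx and Id3 were called higher in EY3960. The ETS genes Elf3 and Ehf, which act in epithelial differentiation, averaged 10.9 and 5.73 TPM there, 5.39 and 4.07 TPM in EY4028, and 3.82 and 1.07 TPM in EY4174. In EY4028 Cebpa and Barx2 were called lower, and in EY4174 Id3 was called higher and Barx2 lower. Of the 24 tested regulators, 5, 3 and 3 were called in EY3960, EY4028 and EY4174. Over all tested genes, 7.04%, 5.74% and 4.95% were called in these lines. Without N sample 4, Elf3 was called higher in EY4028 as well (1.01, adjusted p = 0.000137), and Hopx in EY4174 (1.49, adjusted p = 1.7e-06).

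Genes of mesenchymal transition, which OVOL and grainyhead factors are known to oppose, gave 5 tested of 11 listed. Between EY and N 2 were called, where 3.55% of all tested genes were called. By line 2, 2 and 3 were called in EY3960, EY4028 and EY4174, and 3 among the EY lines. Over all tested genes these shares were 7.04%, 5.74%, 4.95% and 5.12%. Twist1 is in each of these counts. Twist1 averaged 3.62 ± 1.97 TPM across EY (SD, n = 6) against 0.192 ± 0.0905 TPM across N (SD, n = 4), higher by 1.85 (adjusted p = 0.000518). It was at or below 0.274 TPM in every N library and met the minimum for testing through EY libraries alone. Its p-value and its part in those counts are therefore no independent support. Its paralog Twist2 was lower, with a difference of -1.32 (2.27 ± 1.32 and 6.55 ± 0.71 TPM, adjusted p = 0.00991), and without N sample 4 the difference was -1.29 (adjusted p = 0.0245). Twist1 averaged 2.02 TPM in EY3960, 2.72 TPM in EY4028 and 6.11 TPM in EY4174, and Twist2 3.56, 2.59 and 0.662 TPM. Fibronectin, Fn1, had 1.35, 14.2 and 16.4 TPM in the EY lines and 6.67 ± 0.831 TPM in N (SD, n = 4), and was called lower in EY3960 and higher in EY4174. Snai2, a repressor of epithelial adhesion genes, was the most abundant of them and lay lower in every EY library than in any N library, at 54.99 ± 9.27 TPM across EY (SD, n = 6) against 83.9 ± 10.6 TPM across N (SD, n = 4). Its difference of -0.61 passed the adjusted p (0.00555) under the fold threshold, and did not without N sample 4 (-0.52, adjusted p = 0.0155). Snai3 averaged 6.82 ± 0.449 and 5.17 ± 0.881 TPM, with a difference of 0.35 that did not pass (adjusted p = 0.0363).

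The genes nearest in profile to the members that were called, measured as the root mean square difference between centred means of the 4 lines on the log2(TPM + 1) scale among 7639 genes, were the following. For Ovol1 they were the kinase gene Mapkapk3 (0.0837), Abhd1 (0.123) and Prss8 (0.131). For Grhl1 they were the lysosomal fucosidase gene Fuca2 (0.0825), Nipal1 (0.0826) and the serpin gene Serpinb1a (0.0915), and for Grhl3 Fam110c (0.07), the adenosine deaminase gene Ada (0.0716) and Dynlt1c (0.0911). Prss8 is also on the grainyhead target list. With 4 line means a close profile is easily found among so many genes, and likeness here describes these lines.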

How the data were processed

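The deposited TPM were computed by the authors. The submitters' processing notes name STAR 2.7.9, SAMtools 1.7, HTSeq 0.13.5, DESeq2 1.34.0 and GRCm39, and the study's methods describe a Kallisto quantification against a human transcriptome, scaled to TPM, for gene set enrichment. Whether the deposited TPM came from that step is not stated. TPM keep no read depth, so that intervals or detection floors from counts could not be given and no count model was used.

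Values were taken as log2(TPM + 1) for 11630 genes (a minimum of 1 TPM in 4 or more libraries) and fitted with limma 3.58.1 (R 4.3.3, trend and robust options). EY was compared with N, each EY line with N in a model of 4 line means, and the EY lines by F test. P-values were adjusted over all tested genes by Benjamini-Hochberg. A gene was called at an adjusted p under 0.01 and a difference over 1. In simulated data with 200 changed genes among 11630, EY against N recovered 196 with 0 false calls, the F test among lines 181 with 2, and EY3960 against N 191 with 0. The planted shifts were 2 on the log2 scale, in either direction. Noise was drawn independently for each library from the spread within lines, with no other effect shared by the libraries of a line. These counts therefore do not cover false calls that arise from differences between lines.

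The members and gene lists were chosen with earlier results of these data known. All members are named. Of each other list at most 4 genes called between the genotypes were named by rule, 2 in each direction by smallest adjusted p, and further genes were named after their values were seen. Nearest genes were the 3 of smallest distance with a mean of at least 5 TPM. Gene overlaps are from GENCODE M21 and upstream sequences from RefSeq, both on GRCm38. Some genes of the lists are not reported here by name.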

Additional observations from a re-analysis of the deposited data

Results flagged for a closer look

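Among 20 groups of member values examined for a library far from the rest, 1 was found, and chance gives about 1 in 20. Trp63 in N sample 4 was 99.9 TPM, with the other N libraries between 70.8 and 75.3 TPM.

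A difference between EY lines in their distance from N, by the F test, was found for Grhl1, with a largest difference of 1.30 on the log2(TPM + 1) scale, and for Grhl3, with one of 1.36. Grhl3 met the minimum for testing only with the libraries of its highest line, EY3960.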

How the results depend on the processing

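Read depth is unknown, EY rests on 3 lines and N on 1, and genes near 1 TPM such as Grhl3 are measured least precisely. All values are log2 differences unless called counts. The count of members called between EY and N, 1, became 0 with a pseudocount of 5, without a filter, with median-of-ratios scaling, with quantile normalization, without trend and robust options, without line EY3960 or EY4028, with line as a random block and with 1 mean per line, and 2 without line EY4174. It was 0 to 1 on leaving out single libraries. Ovol1 then missed the adjusted p at 0.57 with a pseudocount of 5, 1.07 without a filter, 1.04 with median-of-ratios scaling, 1.05 with quantile normalization, 1.24 without line EY4028, and 1.07 with line as a random block, with 1 mean per line and without trend and robust options. On leaving out single libraries it was 0.93 to 1.22. The same threshold was missed by Trp63 at -0.58 without line EY4028, with the random block and with 1 mean per line, and by Klf4 at 0.54 without line EY4028 and 0.66 with the random block and with 1 mean per line. Single libraries left out gave -0.63 to -0.46 for Trp63 and 0.60 to 0.74 for Klf4. Grhl1 passed at 1.08 without line EY4174. All genes called, 413, became 147 with a pseudocount of 5, 216 with at least 1 TPM in every library, 203 with the random block and 2 with 1 mean per line, and 341 to 445 without single libraries. The causes were not tested, beyond the fewer samples or genes that some settings hold.

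Signs turned only for differences that had not passed. Grhl2 was -0.0027 with median-of-ratios scaling, -0.0011 with quantile normalization, -0.024 without line EY4028, -0.0069 without line EY4174, and -0.0076 to 0.092 without single libraries. Tfap2a was -0.0083, -0.012 and -0.0026 with those scalings and with mitochondrial genes removed, -0.054 without line EY4028, and -0.036 to 0.083 without single libraries. Zfp750 was 0.14 without line EY4174 and -0.23 to 0.015 without single libraries, and Grhl3 was -0.084 without line EY3960. In the single lines, Grhl3 in EY4028 was -0.029 with quantile normalization. Leaving out single libraries gave -0.062 to 0.056 for Tfap2a in EY3960, -0.25 to 0.042 for Tfap2a in EY4174 and -0.0092 to 0.21 for Grhl2 in EY4174. Members called were 2 to 3 in EY3960 and 1 to 2 among the lines without single libraries, and 1 in EY4028 with a pseudocount of 0.1.

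Sample numbers did not pair EY with N libraries (correlations of deviations from -0.11 to 0.10). With sample number as a replicate block, 221 genes and 0 members were called, with differences of 1.26 for Ovol1, 0.78 for Klf4 and -0.44 for Trp63, none of which passed.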
